A study of Mus musculus with 176 samples.

Results

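The 8 genes described here, of 53546 gene names in the count table, are the 5 subunits of the NF-kappaB transcription factor and 3 of its feedback inhibitors. They were taken by gene name, as Rel, Rela, Nfkb1, Relb, Nfkb2, Nfkbia, Nfkbid and Tnfaip3, with no threshold on their values, although earlier results of these data were known when the names were picked. All 8 names were found, each on 1 row. Their reads were followed in single CD4 T cells sorted with a tetramer, a multimer of the P6 peptide of apolipoprotein B held in the I-Ab molecule. The peptide P6 and the cell-name prefix P6, used below, are different things that share a name.

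NF-kappaB dimers wait in the cytoplasm and enter the nucleus when a T cell receptor, a costimulatory receptor or a TNF receptor signals. In the classical branch, dimers of Rel (c-Rel), Rela (p65) and the mature product of Nfkb1 are held by IkappaB-alpha, the product of Nfkbia, until IkappaB kinase marks that inhibitor for destruction. In the alternative branch, which signals through TNF receptors such as those for lymphotoxin, the precursor made by Nfkb2 is processed and pairs with Relb. The dimers switch on their own inhibitors: new IkappaB-alpha returns them to the cytoplasm, the Tnfaip3 product removes and adds ubiquitin chains on signalling proteins, and IkappaB-NS, the product of Nfkbid, binds dimers inside the nucleus. In CD4 T cells c-Rel is best known for its part in the development of regulatory T cells, and IkappaB-NS is known to take part in the induction of Foxp3, their lineage factor.

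The cells came from 1 female C57BL/6J mouse immunized with P6 in complete Freund's adjuvant at 7 weeks of age, boosted in incomplete adjuvant in week 2 and killed in week 4, at 11 weeks of age. CD44hi CD62L- CD4 T cells from lymph nodes draining the groin and the aorta were sorted into wells after incubation with dasatinib, a kinase inhibitor that keeps receptors on the surface, and sequenced by Smart-Seq2. The 176 cells were 32 that bound the tetramer (P6+) and antigen-experienced cells that did not (P6-). Both groups came from the same immunized mouse, so there was no unimmunized control, and each group is 1 sample. The 161 cells used, all 32 P6+ cells and all but 15 of the P6- cells, passed limits of 500000 reads, 2000 genes and 10% mitochondrial reads, with 956280 to 3332191 reads in P6+ cells and 522188 to 3401372 in passing P6- cells. Cell names carried 8 prefixes. The P6+ cells all bore the prefix P6, together with 12 P6- cells of which 11 passed, and these 11 are called shared-prefix P6- cells. Prefixes 2 to 5 were read on sequencing lane 1 and prefixes 6 to 9 on lane 2. Of the T cell markers, 8 of 8 reached 10 reads per 1000000 counted reads (cpm) in the sums of P6+ and of passing P6- cells. Single cells differed more. The lowest marker sum of a cell was 2080 cpm in P6+, 47.8 cpm in shared-prefix P6- and 10.6 cpm in all passing P6- cells. The medians were 5217, 4351 and 5684 cpm. Some passing P6- cells thus held few T cell reads. Myeloid markers summed to 0.0169 and 0.0343 cpm in P6+ and in all passing P6- cells, and 7 B cell markers to 387 and 227 cpm. Cd79a, a defining B cell gene, was at 0 in both, while Cd74 stood at 341 and 227 cpm, in 14 of 32 P6+ cells, and Cd79b at 46.1 and 0.00981 cpm, in 2 of 32 P6+ cells. Their part in the P6+ levels below was not tested.

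Kappa-B sites are the short DNA elements that these dimers bind, and the start-site windows of the genes are shown because several of these genes are textbook targets of the factor they encode or inhibit. RefSeq windows on GRCm38.p6, from 250 bases before to 50 bases after a start site, were at hand for 6 of the 8 genes, 11 windows in all, and none for Nfkb1 and Relb. The kappaB consensus, searched on both strands with overlapping matches counted, was present in 7 of the 11 windows and in 5 of the 6 genes, beside 1480 of 32851 windows (4.51%) of all genes. The Rela window held no match. In the lines below the sequence runs 5' to 3' on the gene's own strand in lower case, and capitals mark the matches.
Rel chr11:23770920-23771219: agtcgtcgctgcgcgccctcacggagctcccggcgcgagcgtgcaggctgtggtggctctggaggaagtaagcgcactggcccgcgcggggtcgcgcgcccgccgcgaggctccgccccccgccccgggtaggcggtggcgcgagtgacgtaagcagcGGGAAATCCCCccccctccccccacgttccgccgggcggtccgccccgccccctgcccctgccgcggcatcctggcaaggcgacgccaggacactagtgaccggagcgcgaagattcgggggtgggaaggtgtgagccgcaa
Nfkb2 chr19:46304487-46304786: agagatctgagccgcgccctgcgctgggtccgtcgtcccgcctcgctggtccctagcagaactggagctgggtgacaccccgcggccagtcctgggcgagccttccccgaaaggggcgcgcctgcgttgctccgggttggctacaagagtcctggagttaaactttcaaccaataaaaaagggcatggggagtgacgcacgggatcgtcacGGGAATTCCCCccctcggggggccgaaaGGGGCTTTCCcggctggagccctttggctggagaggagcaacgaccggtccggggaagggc
Nfkbia chr12:55492598-55492897: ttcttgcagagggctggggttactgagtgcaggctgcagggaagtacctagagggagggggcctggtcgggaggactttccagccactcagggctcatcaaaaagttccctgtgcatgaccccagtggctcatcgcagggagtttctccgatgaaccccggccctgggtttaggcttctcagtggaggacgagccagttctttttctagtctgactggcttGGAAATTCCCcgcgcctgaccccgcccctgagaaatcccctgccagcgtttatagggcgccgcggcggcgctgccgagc
Nfkbid chr7:30422156-30422455: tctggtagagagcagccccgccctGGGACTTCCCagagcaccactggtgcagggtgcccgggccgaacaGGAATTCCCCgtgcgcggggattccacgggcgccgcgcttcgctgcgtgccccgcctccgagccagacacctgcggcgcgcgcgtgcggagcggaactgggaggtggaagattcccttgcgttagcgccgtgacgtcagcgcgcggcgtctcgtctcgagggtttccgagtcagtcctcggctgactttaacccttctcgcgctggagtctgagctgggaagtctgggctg
Tnfaip3 chr10:19015361-19015660: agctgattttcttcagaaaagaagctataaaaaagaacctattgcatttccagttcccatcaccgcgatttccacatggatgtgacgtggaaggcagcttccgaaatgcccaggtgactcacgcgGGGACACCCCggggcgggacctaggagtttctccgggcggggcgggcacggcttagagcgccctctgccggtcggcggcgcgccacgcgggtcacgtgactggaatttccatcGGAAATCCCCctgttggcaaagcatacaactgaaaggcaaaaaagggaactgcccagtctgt
In the Nfkbia window the match began at -29 relative to the start site. In the Rel window overlapping matches began at -92 and -91, the first of them on both strands. The Nfkb2 window held overlapping matches at -39 and -38 and a separate match at -11. Another start site of Nfkb2 had matches at -236 and 10, and the second of these also fell in an overlapping window of a further start site. The Nfkbid window, that of its second listed start site, had matches at -226 and -181, and the other 2 Nfkbid windows had none. The Tnfaip3 window had matches at -125 and -12. A match says only that these letters occur there, and binding was not measured.

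Each of the 8 genes was either plainly present in the reads of a cell or nearly absent from them. Levels are reads of a gene per 1000000 reads counted on genes (cpm), for a group taken from the sums of its cells (the pooled level), and a gene is called detected in a cell with 10 or more reads. Of 1288 values of 8 genes in 161 passing cells, 878 were under 10 reads, 366 were at 100 cpm or more, and 44 lay between. No value under 10 reads exceeded 11.5 cpm. How other genes divide in this way was not counted, so the division is no trait of these genes. Whether a low value meant a cell without the transcript or its loss before sequencing was not tested. Among cells with 10 or more reads the median level ran from 311 cpm for Nfkb1 to 1602 cpm for Nfkbia. A group level therefore moved with a few cells: the cell with the most reads held 82.2% of all Nfkbid reads of P6+ cells, and such cells held 14.8% to 34.2% of the reads of the other 7 genes. Intervals given for levels are exact Poisson and those for shares of cells exact binomial at 95%. They cover counting error only, since the protocol has no molecular identifiers and the mouse was not replicated, so no test between groups was made.

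**Figure D1:**
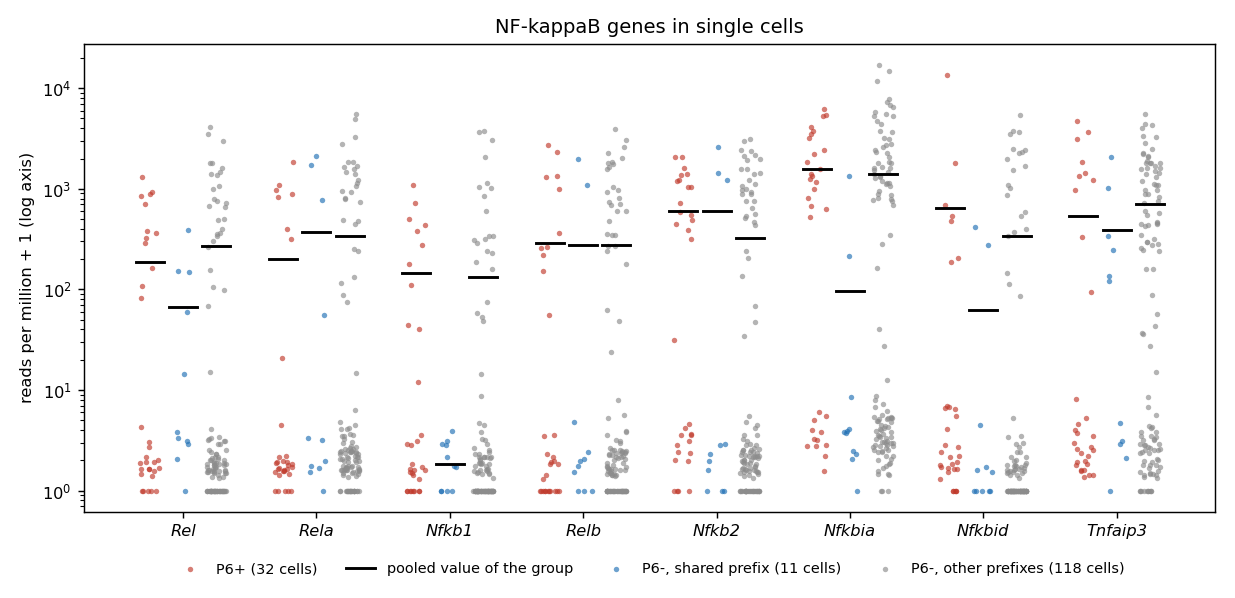
Level (cpm plus 1, log axis) of each gene in single cells, for P6+ cells (red), shared-prefix P6- cells (blue) and P6- cells of other prefixes (grey), with the pooled value of each group as a black bar. Points fall into a high and a low band in all 8 genes, and Nfkb1 has no shared-prefix P6- cell in the high band.

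Levels per kilobase of exon put Nfkbia first in P6+ cells and in all P6- cells but below Nfkb2, Rela and Relb in shared-prefix P6- cells, and Nfkb1 last in all 3 groups. In P6+ cells Nfkbia stood at 978 cpm per kilobase, Nfkbid at 277, Nfkb2 at 131.2, Tnfaip3 at 74.01, Relb at 73.6, Rela at 65.6, Rel at 25.1 and Nfkb1 at 12.1. The intervals of Tnfaip3 and Relb overlapped, and the other neighbours in this order were apart by more than counting error. The place of Nfkbid rested on 1 cell: without the cell with the most reads of each gene Nfkbid was at 51.3 cpm per kilobase, below Nfkb2 at 116.8, Relb at 61.2 and Tnfaip3 at 51.6. In shared-prefix P6- cells the order was Nfkb2 at 131.1, Rela at 121.5, Relb at 70.4, Nfkbia at 59.04, Tnfaip3 at 53.5, Nfkbid at 26, Rel at 8.75 and Nfkb1 at 0.0698 cpm per kilobase. Without the cell with the most reads of each gene it was Nfkb2 at 68.7, Rela at 53.9, Tnfaip3 at 28.7, Relb at 17.6, Nfkbia at 14.1, Nfkbid at 13.8, Rel at 6.38 and Nfkb1 at 0.0601. In all P6- cells the order was Nfkbia at 812, Nfkbid at 134.7, Rela at 110.6, Tnfaip3 at 94.4, Nfkb2 at 74.8, Relb at 71.5, Rel at 33.7 and Nfkb1 at 10.04 cpm per kilobase. Compared within each of the 8 prefixes of P6- cells, Nfkbia stood above Nfkbid in 8 of 8. The other neighbours in this order changed places between prefixes, Nfkbid standing above Rela and Nfkb2 above Relb in 3 of 8 prefixes, and Tnfaip3 above Nfkb2 and Rel above Nfkb1 in 6 of 8. Exon lengths are the union of annotated exons in GENCODE.

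The first comparison asked how P6+ cells differed from P6- cells of the same prefix. A gene was called past the fold when pooled levels differed by 1 or more on the log2(cpm + 1) scale with 10 cpm in the higher group. Nfkb1, Nfkbia, Nfkbid and Rel were past it, all higher in P6+ cells, and no member was past it in the other direction. Across all 7761 genes tested, 50.3% were past the fold higher and 24% lower in P6+ cells, 74.4% in either direction, with a median log2 ratio of 1.04 beside 0.99 over the 8 genes. The count of 4 of 8 was therefore near the background and is no result about these genes.

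Nfkb1 (ENSMUSG00000028163, chr3:135584655-135691547, minus strand), which encodes the precursor of the p50 subunit, ranged in P6+ cells from 0 to 1094 cpm with a median of 0.784 cpm, and 11 of 32 cells had 10 or more reads (34.4%, 18.6 to 53.2). The 11 shared-prefix P6- cells held 0 to 3 reads each and 13 in all, and 0 of 11 cells had 10 reads, which allows a share of up to 28.5%. The pooled levels were 146 cpm (142.7 to 148.9) and 0.842 cpm (0.448 to 1.44), a log2 ratio of 6.32, at percentile 93.9 of the genes tested, and 3.84 when 10 cpm in place of 1 was added to each level. The low cells of both groups overlapped and no shared-prefix P6- cell reached the 11 high P6+ cells. The other 7 prefixes did hold high cells: 23 of all passing P6- cells (17.8%, 11.7 to 25.5) had 10 or more reads and the pooled level of all was 121.1 cpm.

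Nfkbia (ENSMUSG00000021025, chr12:55489410-55492647, minus strand), whose kappaB match is shown above, ranged from 0.570 to 6243 cpm in P6+ cells, with a median of 895 cpm, and 21 of 32 cells had 10 or more reads (65.6%, 46.8 to 81.4). In shared-prefix P6- cells it ranged from 0 to 1327 cpm, with a median of 2.85 cpm, and 2 of 11 cells passed 10 reads (18.2%, 2.28 to 51.8). The 2 ranges overlapped, as did the intervals of the shares. The pooled levels were 1574 and 95.1 cpm, a log2 ratio of 4.04, at percentile 68.3 of the genes tested. In the shared-prefix P6- cells 1 cell held 77.5% of the Nfkbia reads, and without the cell with the most reads in each group the ratio was 5.85.

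Nfkbid (ENSMUSG00000036931, chr7:30421732-30428746, plus strand) ranged from 0 to 13509 cpm in P6+ cells, with a median of 1.32 cpm, and from 0 to 419 cpm in shared-prefix P6- cells, with a median of 0.523 cpm. The shares were 8 of 32 and 2 of 11 cells, and the ranges overlapped. The pooled levels of 650 and 60.9 cpm gave a log2 ratio of 3.39, and without the cell with the most reads in each group it was 1.87. Rel (ENSMUSG00000020275, chr11:23736847-23770970, minus strand) ranged from 0 to 1299 cpm in P6+ cells, with a median of 1.09 cpm, and from 0 to 390 cpm in shared-prefix P6- cells, with a median of 2.85 cpm. It was detected in 12 of 32 and 5 of 11 cells, so that its pooled log2 ratio of 1.51 (188 and 65.3 cpm) went with a lower share of P6+ cells.

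The other 4 genes did not pass the fold. Rela (ENSMUSG00000024927, chr19:5637483-5648130, plus strand), which carries the strong activation domain of the classical dimer, was at 202 cpm in P6+ and 373 cpm in shared-prefix P6- cells, a log2 ratio of -0.88. It passed the fold lower with the mean of cells (-1.09), with cells thinned to 500000 reads (-1.07) and with a minimum of 1000000 reads (-1.03). In the shared-prefix P6- cells 1 cell held 60.4% of the Rela reads, and without the cell with the most reads in each group the ratio was -0.25. Relb (ENSMUSG00000002983, chr7:19606217-19629438, minus strand) was at 286 and 274 cpm, but without the cell with the most reads in each group the log2 ratio moved from 0.06 to 1.79. Nfkb2 (ENSMUSG00000025225, chr19:46304320-46312385, plus strand) was at 601 cpm in both groups, carried by 17 of 32 P6+ cells and by 3 of 11 shared-prefix P6- cells, of which 1 held 54.1% of their reads. Without the cell with the most reads in each group the Nfkb2 levels were 535 and 315 cpm (log2 ratio 0.76). The annotation places the antisense gene Psd over part of Nfkb2, and whether reads were counted by strand is not given in the sources used here, so its level is uncertain. Tnfaip3 (ENSMUSG00000019850, chr10:19000910-19015657, minus strand) was at 535 and 386 cpm, in 11 of 32 and 6 of 11 cells.

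**Figure D2:**
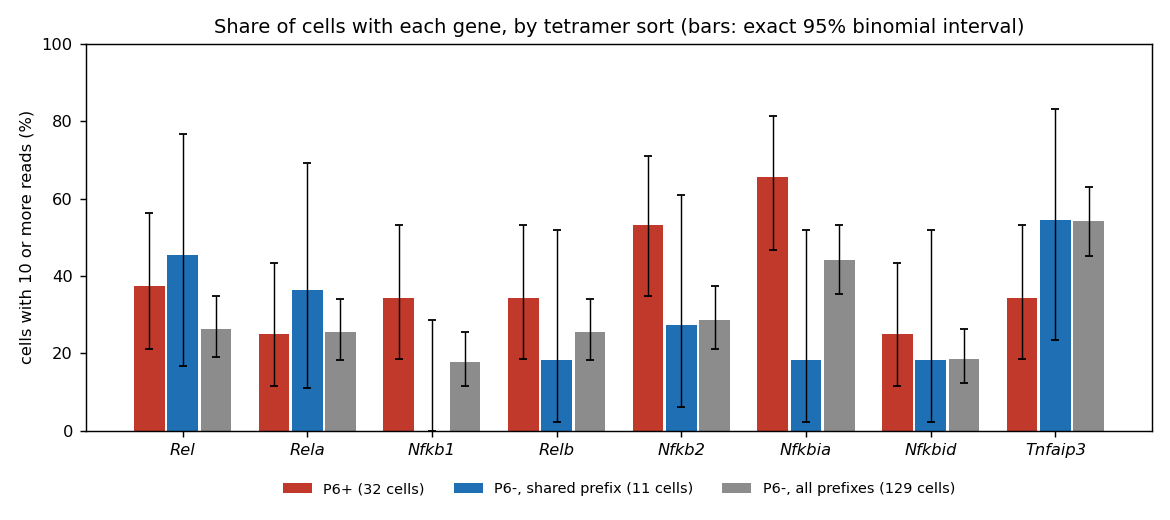
Share of cells (%) with 10 or more reads of each gene in 32 P6+ cells, 11 shared-prefix P6- cells and all passing P6- cells, with exact 95% binomial intervals. Nfkbia stands at 65.6%, 18.2% and 44.2% in these groups, and Tnfaip3 at 34.4%, 54.5% and 54.3%.

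The second comparison set P6+ cells against all passing P6- cells. Nfkbid was the 1 member of 8 past the fold, beside 24.3% of 8728 genes higher, 29.9% lower and 54.3% in either direction. It ranged from 0 to 13509 cpm in P6+ and from 0 to 5449 cpm in P6- cells, overlapping ranges, with medians of 1.32 and 0 cpm and pooled levels of 650 and 316 cpm (log2 ratio 1.04). Without the cell with the most reads in each group the Nfkbid log2 ratio was -1.12. That P6+ cell held 31736 Nfkbid reads, 13509 cpm, and the next highest P6+ cell 1803 cpm. The remaining log2 ratios ran from -0.75 (Rela, 202 and 340 cpm) to 0.81 (Nfkb2, 601 and 343 cpm), and those of Nfkb1 and Nfkbia were 0.26 and 0.27. That of Nfkb1 was below 0 with the mean of cells (-0.37) and with cells thinned to 500000 reads (-0.44). The P6+ cells were all on lane 2. With P6- cells of lane 2 only, Rela was at 202 and 202.5 cpm (log2 ratio -0.0064), Relb passed the fold at 1.34 and Nfkbid stood at 0.91. Without the cell with the most reads in each group Rela passed the fold lower at -1.03, and without prefix 8 Nfkb2 passed it higher at 1.01. Tnfaip3 was at 535 and 682 cpm and was detected in 11 of 32 P6+ cells (34.4%, 18.6 to 53.2) and 70 of all passing P6- cells (54.3%, 45.3 to 63.1), with overlapping intervals. For Nfkb2 the shares were 17 of 32 (53.1%, 34.7 to 70.9) and 37 of all passing P6- cells (28.7%, 21.1 to 37.3), also overlapping. The 2 comparisons share the P6+ cells and the 11 shared-prefix cells.

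**Figure D3:**
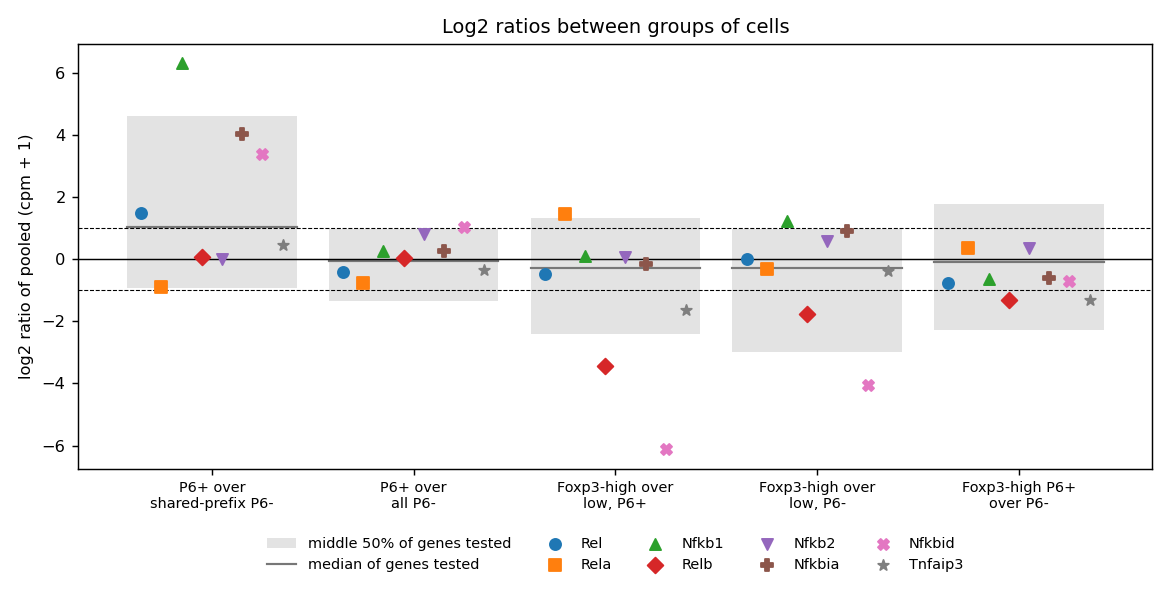
Log2 ratio of pooled cpm + 1 for the 8 genes in 5 comparisons, with the middle 50% of all genes tested (grey box) and their median (grey line); dashed lines mark the fold of 1. Nfkb1 lies above the box in the first comparison, at 6.32, and Nfkbid below it in both Foxp3 splits, at -6.12 and -4.06.

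P6- cells of different prefixes differed widely from one another. Of the 8 prefixes, P6- cells of the shared prefix had the lowest pooled level of Nfkb1, Rel, Nfkbia and Tnfaip3. Nfkb1 ran over the prefixes from 0.842 cpm (prefix 6) to 342 cpm (prefix 7), Relb from 0.757 cpm (prefix 5) to 777 cpm (prefix 2), and Nfkbid from 0.541 cpm (prefix 2) to 851 cpm (prefix 4). In prefix 7, 1 cell held 74.5% of the Nfkb1 reads, and without it the level was 93.7 cpm. Tnfaip3 varied least, from 386 to 877 cpm, a 2.27-fold range, and from 125.2 to 768 cpm without the cell with the most reads in each prefix. Without such cells the shared prefix was no longer the lowest for Rel, at 47.6 cpm beside 40.8 cpm in prefix 7, nor for Tnfaip3, at 207 cpm beside 125.2 cpm in prefix 9. The P6+ level lay inside the range of P6- prefixes for all 8 genes: above 7 of 8 prefixes for Nfkb2 and Nfkbid, above 5 for Nfkb1, Relb and Nfkbia, above 4 for Rel and above 2 for Rela and Tnfaip3. Nfkb2 stood at 601.4 cpm in P6+ and 601.2 cpm in shared-prefix P6- cells. When the cell with the most reads was left out of each group and prefix, the P6+ level lay above all 8 prefixes for Nfkb2, at 535 cpm beside 429 cpm at most, and for Nfkb1, at 100.6 cpm beside 93.7 cpm at most. Prefixes held 11 to 24 passing P6- cells each, beside 32 P6+ cells, so this step was uneven. It took 34.2% of the P6+ Nfkb1 reads and 74.5% of those of prefix 7. For Nfkb2 it took 14.8% in P6+ and 33.5% in prefix 5. The place of P6+ above all prefixes can therefore not be read as a difference between the cells.

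**Figure D4:**
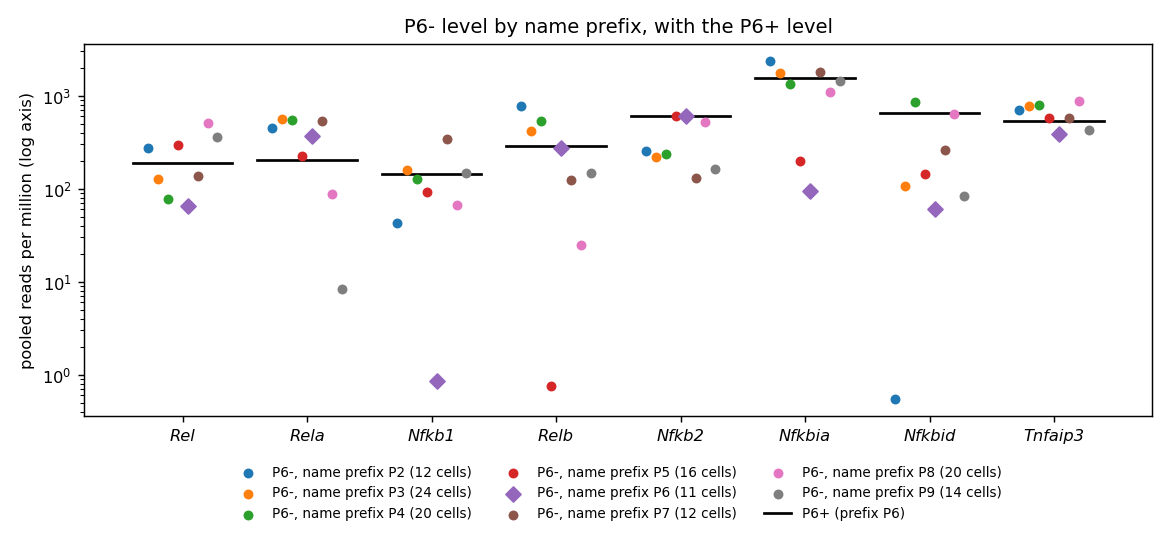
Pooled level (cpm, log axis) of each gene in passing P6- cells of the 8 name prefixes (points, shared prefix as a diamond) and in P6+ cells (black line). The P6+ line lies within the range of the points for all 8 genes, and the diamond is the lowest point for Rel, Nfkb1, Nfkbia and Tnfaip3.

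More of the 8 genes were detected per P6+ cell than per P6- cell over all cells, but so were more genes of any kind. P6+ cells had 1 to 7 of them at 10 or more reads, with a median of 3, and no P6+ cell had 0. Shared-prefix P6- cells had 0 to 5, with a median of 2, and all passing P6- cells 0 to 6, with a median of 2, of which 23 cells had 0. The share of cell and gene pairs was 38.7% in P6+, 27.3% in shared-prefix P6- and 30.1% in all P6- cells, and 37.1%, 26.1% and 29.4% after each cell was thinned to 500000 reads. Among cells with 10 or more Foxp3 reads the share was 39.8% in P6+ and 39.5% in P6- cells, with medians of 3 and 2 genes, and among the others 38.1% and 28.5%. P6+ cells also had more genes of any kind with any reads, a median of 4396 beside 3674 and 3432. In cells with 10 or more Foxp3 reads these medians were 4618 in P6+ and 3415 in P6-. The higher count is therefore not read as a result about these genes, and the part of gene number in it was not tested.

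Foxp3, the lineage factor of regulatory T cells, left few cells near the limit used. Cells with 10 or more Foxp3 reads are called Foxp3-high. The lowest such cells held 22 reads among 11 Foxp3-high P6+ cells and 37 among 19 Foxp3-high P6- cells, and the highest cells below the limit held 4 and 2 reads. In P6- cells the other 6 regulatory T cell markers (Il2ra, Ctla4, Ikzf2, Ikzf4, Tnfrsf18, Capg) were all past the fold in Foxp3-high cells, and in P6+ cells Capg alone was. With Foxp3 they summed to 6334 and 2836 cpm in Foxp3-high and Foxp3-low P6+ cells and to 5953 and 1137 cpm in P6- cells. The median per Foxp3-low cell was 3080 cpm in P6+ and 450 cpm in P6-. Of the 21 Foxp3-low P6+ cells, 9 held 1 to 4 Foxp3 reads. The P6+ split therefore does not set regulatory cells against cells without their markers. Among Foxp3-high P6- cells Cd8b1 reached 1357 cpm at most per cell and the CD8 T or NK cell markers summed to 78.5 cpm, beside 0.843 cpm in Foxp3-low P6- cells. B cell markers summed to 670 and 262 cpm in Foxp3-high and Foxp3-low P6+ cells and to 661 and 154 cpm in P6- cells, with Cd79a at 0 in all 4 groups and Cd79b and Cd74 the only list members at 10 cpm or more in Foxp3-high P6+ cells. Their part in the differences below was not tested.

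Relb and Nfkbid were lower in Foxp3-high cells of both sorts. Within P6+ cells Rela was past the fold higher and Relb, Nfkbid and Tnfaip3 lower in Foxp3-high cells, beside 28.2% of 7721 genes higher and 38.3% lower. Within P6- cells Nfkb1 was higher and Relb and Nfkbid lower, beside 24.4% of 8335 genes higher and 37.9% lower. In either direction 66.5% and 62.3% of genes were past the fold, so counts of 4 of 8 and 3 of 8 did not exceed the background.

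Nfkbid ranged from 0 to 203 cpm in the 11 Foxp3-high P6+ cells, with a median of 1.17 cpm, and from 0 to 13509 cpm in the 21 Foxp3-low P6+ cells, with a median of 1.71 cpm. The pooled levels were 12.4 and 932 cpm, a log2 ratio of -6.12, at percentile 4.25 of the genes tested. In P6- cells it ranged from 0 to 273 cpm in Foxp3-high and from 0 to 5449 cpm in Foxp3-low cells, with medians of 0 cpm. The pooled levels there were 21 and 366 cpm, a log2 ratio of -4.06. Detected cells were 1 of 11 and 7 of 21 in P6+, and 2 of 19 (10.5%, 1.30 to 33.1) and 22 of 110 (20%, 13 to 28.7) in P6-, so the ranges and the intervals of the shares overlapped. The direction depended on the limit: the P6+ cell with the most Nfkbid reads held 1 Foxp3 read and the P6- cell with the most held 2. With a limit of 1 Foxp3 read, under which these cells counted as Foxp3-high, the log2 ratios were 1.88 in P6+ and 0.80 in P6-. The shares were then 4 of 20 and 4 of 12 P6+ cells, and 10 of 44 (22.7%) and 14 of 85 (16.5%) P6- cells. The P6- share thus turned as well, with overlapping intervals. Without the cell with the most reads in each group the ratios at the limit of 10 reads were -5.91 and -5.86.

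Relb, the partner of the Nfkb2 product, ranged from 0 to 263 cpm in Foxp3-high P6+ cells, with a median of 0.857 cpm, and from 0 to 2730 cpm in Foxp3-low P6+ cells, with a median of 1.17 cpm. The pooled levels were 35.8 and 396 cpm (log2 ratio -3.43, and -1.02 with a limit of 1 Foxp3 read), in 3 of 11 and 8 of 21 cells. In P6- cells it was at 90.3 and 310 cpm (log2 ratio -1.77), in 2 of 19 (10.5%, 1.30 to 33.1) and 31 of 110 (28.2%, 20 to 37.6) cells, and 1 of the Foxp3-high cells held 96.5% of their reads. Without the cell with the most reads in each group the Relb log2 ratios were -4.58 in P6+ and -5.99 in P6- cells. All ranges overlapped. Nfkb2 was at 620 and 593 cpm in P6+ and 478 and 320 cpm in P6- cells. Of the Nfkb2 reads of Foxp3-high P6+ cells 1 cell, which held 22 Foxp3 reads, gave 46.9%, and at a limit of 50 Foxp3 reads the P6+ levels were 383 and 680 cpm (log2 ratio -0.83).

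Rel was detected in a larger share of Foxp3-high than of Foxp3-low P6- cells, while its pooled levels were alike at the limit of 10 Foxp3 reads. It ranged from 0 to 1477 cpm in these cells, with a median of 14.2 cpm, and from 0 to 4075 cpm in Foxp3-low P6- cells, with a median of 0.771 cpm. It was detected in 11 of 19 Foxp3-high (57.9%, 33.5 to 79.7) and 23 of 110 Foxp3-low cells (20.9%, 13.7 to 29.7), intervals that did not overlap, while the pooled levels were 255 and 251 cpm. It was 1 of 8 members with intervals apart, beside 1.16% of 8335 genes higher and 0.036% lower in Foxp3-high cells, and a single member is too few to read against that background. In each of the other 5 comparisons 0 of 8 members had intervals apart, beside 0.363% to 5.85% of genes. The shares were 5 of 11 and 10 of 61 cells on lane 1 and 6 of 8 and 13 of 49 on lane 2, where the intervals overlapped within each lane (16.7 to 76.6% and 8.15 to 28.1% on lane 1, 34.9 to 96.8% and 14.9 to 41.1% on lane 2). They were 20 of 44 and 14 of 85 with a limit of 1 Foxp3 read, where the pooled levels were 546 and 99.4 cpm. The log2 ratio of pooled levels was 1.2 on lane 1 and -1.13 on lane 2. In P6+ cells the shares were 5 of 11 and 7 of 21, with overlapping intervals, and the pooled levels 149 and 205 cpm. The 3 Foxp3-high P6- cells of the shared prefix all had 10 or more Rel reads, at 13.4, 149 and 149.7 cpm.

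Nfkbia showed a like difference in P6- cells, detected in 13 of 19 Foxp3-high (68.4%, 43.4 to 87.4) and 44 of 110 Foxp3-low cells (40%, 30.8 to 49.8), with overlapping intervals and pooled levels of 2196 and 1156 cpm (log2 ratio 0.92). Without prefix 2 the P6- log2 ratio was 0.31, and it was past the fold without prefix 3 (1.30) or prefix 6 (1.17), on lane 1 (1.08), with size factors (1.03), at a limit of 1 Foxp3 read (1.02) and with no filter on cells (1.01). In P6+ cells Nfkbia was at 1453 and 1627 cpm, in 7 of 11 and 14 of 21 cells. There the Foxp3-high cell with 22 Foxp3 reads held 60.4% of the Nfkbia reads. With a limit of 50 Foxp3 reads, which moved that cell to the other group, the levels were 670 and 1897 cpm (log2 ratio -1.50), past the fold, as was the ratio of -1.10 without the cell with the most reads in each group. Nfkb1 was at 239 and 101.1 cpm in Foxp3-high and Foxp3-low P6- cells (log2 ratio 1.23), in 6 of 19 and 17 of 110 cells, and without the cell with the most reads in each group the ratio was 0.81, without prefix 3 it was 0.37, without prefix 9 it was 0.61, on lane 2 it was 0.71 and without prefix 7 it was 1.84. In P6+ cells it was at 154 and 142.02 cpm, of which the same cell with 22 Foxp3 reads gave 66.5% of the Foxp3-high reads. With a limit of 50 Foxp3 reads the Nfkb1 levels were 60.2 and 176 cpm (log2 ratio -1.54). Rela was at 362 and 130.7 cpm in P6+ cells (log2 ratio 1.46), in 5 of 11 and 3 of 21 cells, and at 280 and 350 cpm in P6- cells (log2 ratio -0.32). Of the Rela reads of Foxp3-high P6- cells 1 cell held 66.9%. The P6- ratio was past the fold lower, opposite to P6+, without the cell with the most reads in each group (-1.56), without prefix 3 (-2.62) and on lane 2 (-1.65). In Foxp3-low P6+ cells 1 cell held 75.03% of the Rela reads, and the P6+ ratio was 2.74 without the cell with the most reads in each group and 6.69 with a limit of 1 Foxp3 read. Tnfaip3 was at 217 and 675 cpm in P6+ cells (log2 ratio -1.63), in 3 of 11 and 8 of 21 cells, and at 544 and 706 cpm in P6- cells. Its P6+ ratio was -3.97 without the cell with the most reads in each group and -3.41 at a limit of 1 Foxp3 read, and its P6- ratio moved from -0.37 to -0.99 without prefix 7. Whether a split differed between P6+ and P6- cells was not tested.

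**Figure D5:**
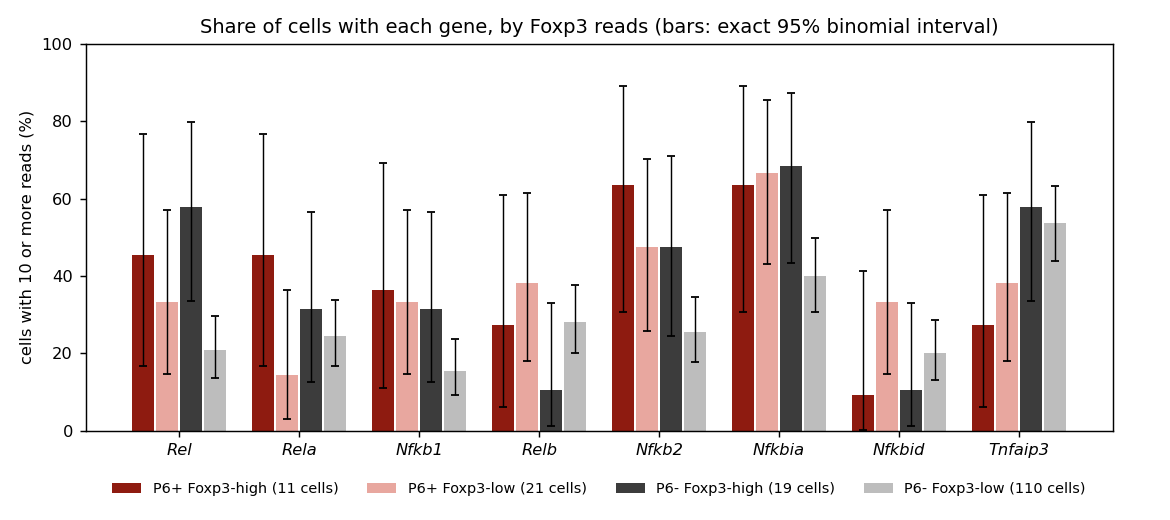
Share of cells (%) with 10 or more reads of each gene in Foxp3-high and Foxp3-low cells of P6+ (dark and light red) and P6- (dark and light grey), with exact 95% binomial intervals. Rel in P6- cells, at 57.9% and 20.9%, is the pair of bars whose intervals do not overlap, as in 1.2% of all genes tested in that split in either direction.

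Among Foxp3-high cells alone, Relb and Tnfaip3 were past the fold, both lower in P6+ than in P6- cells, beside 32.9% of 7550 genes higher, 36.7% lower and 69.6% in either direction. Tnfaip3 ranged from 0.441 to 3149 cpm in the 11 P6+ and from 0 to 3261 cpm in the 19 P6- cells, with medians of 1.71 and 248 cpm and pooled levels of 217 and 544 cpm (log2 ratio -1.32). It was detected in 3 of 11 (6.02 to 61%) and 11 of 19 cells (33.5 to 79.7%), so both ranges and intervals overlapped. In P6+ 1 cell held 88.1% of these Tnfaip3 reads, and without the cell with the most reads in each group the ratio was -3.73. It was short of the fold without prefix 7 of the P6- cells (-0.80), with the mean of cells (-0.69) and with cells thinned to 500000 reads (-0.62). The Relb log2 ratio of -1.31 (35.8 and 90.3 cpm) turned to 1.68 without the cell with the most reads in each group and to 2.46 with P6- cells of lane 2 only. Nfkbid was low in both, at 12.4 and 21 cpm. Its log2 ratio of -0.71 ran from -2.77 with a minimum of 1000000 reads to 1.17 without prefix 6. Rela, at 362 and 280 cpm (log2 ratio 0.37), passed the fold higher without the cell with the most reads in each group (1.29), without prefix 3 (2.75) and on lane 2 (2.33). Nfkb1 and Nfkbia, at log2 ratios of -0.63 and -0.60, passed the fold lower at a limit of 50 Foxp3 reads (-2.04 and -1.74) and without the cell with the most reads in each group (-1.09 and -1.30). Nfkb1 also did so with the mean of cells (-1.40) and with thinned cells (-1.52), and Rel, at -0.78, at a limit of 1 Foxp3 read (-1.47). Other settings moved these genes the other way. Nfkb1 was at 0.13 without prefix 3 and Nfkbia at 0.02 without prefix 2. With P6- cells of lane 2 only, Nfkb1, Nfkbia and Rel were at -0.32, -0.27 and -0.15.

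A split by Trbv13-2, a V segment of the T cell receptor beta chain, crosses that by Foxp3, since 9 of the 11 Foxp3-high P6+ cells also had 10 or more Trbv13-2 reads. Among 16 P6+ cells with and 16 without these reads, Nfkbid was at 130.7 and 1189 cpm and Tnfaip3 at 241 and 840 cpm, both past the fold lower (log2 ratios -3.18 and -1.80), beside 33.4% of 7660 genes lower, 34.9% higher and 68.3% in either direction. Nfkbid was detected in 3 of 16 and 5 of 16 cells and Tnfaip3 in 5 of 16 and 6 of 16. In each group 1 cell held 94.05% and 91.6% of the Nfkbid reads, and without these cells its levels were 8.35 and 108.8 cpm (log2 ratio -3.55). Nfkbia was at 2040 and 1091 cpm (log2 ratio 0.90). Rela was at 261 and 140.6 cpm (log2 ratio 0.89), in 6 of 16 and 2 of 16 cells, and 1 cell held 98.5% of the reads of the second group. It passed the fold higher with the mean of cells (1.27), with cells thinned to 500000 reads (1.18) and without the cell with the most reads in each group (5.77).

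Rel and Nfkbia were the most alike of the 28 pairs of members. Spearman's rank correlation of log2(cpm + 1) over the 161 passing cells was 0.34 for this pair, with a median of 0.06 and a range of -0.09 to 0.34 over the pairs. The correlation is given as a description, and the cells share a mouse and sequencing lanes and differ in depth. Of 1309 genes detected in at least 25% of passing cells, Nfkbia was the gene most like Rel, followed by Gata3 (0.33) and Ssb (0.29), and the 99th percentile of all correlations with Rel was 0.25. The genes most like Nfkbia were Tnfrsf18 (0.36), Traf1 (0.35) and Rel, and that most like Tnfaip3 was Junb (0.31). Those most like Nfkb1 were Il21r (0.32), Tigit (0.30) and Id2 (0.27), and those most like Nfkb2 were Fis1 (0.37), Ap2s1 (0.34) and Il2rb (0.32). For Rela, Relb and Nfkbid no gene exceeded 0.29.

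Shares of cells describe the same pair over the same cells and are no second observation of it. Of the 34 P6- cells with Rel, 23 also had Nfkbia (67.6%, 49.5 to 82.6), beside 34 of 95 without Rel (35.8%, 26.2 to 46.3). For Rela the shares were 22 of 33 (66.7%, 48.2 to 82) and 35 of 96 (36.5%, 26.9 to 46.9). In P6+ cells they were 9 of 12 and 12 of 20 for Rel and 6 of 8 and 15 of 24 for Rela, with overlapping intervals. Within Foxp3-low P6- cells 15 of 23 cells with Rel (65.2%, 42.7 to 83.6) and 29 of 87 without (33.3%, 23.6 to 44.3) had Nfkbia, and these intervals overlapped. So did those for Rela, 16 of 27 (59.3%, 38.8 to 77.6) and 28 of 83 (33.7%, 23.7 to 44.9). The correlation of Rela and Nfkbia was 0.12, below the 99th percentile of 0.19 for Rela. Shares over all pairs of genes were not counted. Nfkb2 was detected in 14 of 33 P6- cells with Relb (42.4%, 25.5 to 60.8) and in 23 of 96 without (24%, 15.8 to 33.7).

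The genes around the 8 were read from lists of the pathway. TNF receptors of T cells, which feed into both branches, were past the fold higher in P6+ than in shared-prefix P6- cells for 6 of 7 genes tested (background 50.3%), with Tnfrsf25 at 147 and 0.259 cpm, Tnfrsf1a at 77.7 and 0.0648 cpm and Tnfrsf1b at 1244 and 58.1 cpm, in 3, 4 and 28 of 32 P6+ cells. Against all P6- cells 2 of 7 were higher, Tnfrsf1a and Tnfrsf9 (background 24.3%). In Foxp3-high against Foxp3-low P6- cells 7 of 7 were higher (background 24.4%), with Tnfrsf25 at 474 and 87.2 cpm, Tnfrsf1a at 63.5 and 11.7 cpm and Tnfrsf1b at 1988 and 459 cpm, and in P6+ cells Cd27 alone was higher of 7 (background 28.2%). Tnfrsf18 is also among the regulatory T cell markers. Textbook targets were past the fold higher for 10 of 14 genes and lower for 1 in P6+ against shared-prefix P6- cells, led by Bcl2l1 at 308 and 0.194 cpm, Icam1 at 207 and 0.0648 cpm and Cd83 at 105.6 and 0.324 cpm, in 8, 6 and 3 of 32 P6+ cells. Against all P6- cells 3 of 15 were higher, Icam1, Bcl2l1 and Bcl2a1d, and 2 lower, Tnf and Cd83 (background 24.3% and 29.9%). Cd83 thus stood the other way there, at 105.6 and 363 cpm (log2 ratio -1.77).

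The share of all genes past the fold, beside which the next counts stand, was 50.3% higher and 24% lower in the first comparison and 24.3% higher and 29.9% lower in the second. Other inhibitors of the pathway were past the fold higher for 6 of 13 genes and lower for 2 in P6+ against shared-prefix P6- cells, and for 4 and 2 of 13 against all P6- cells, where Itch, a ubiquitin ligase, was at 123.1 and 26.7 cpm. Kinases and adaptors were higher for 10 of 17 and lower for 2 in the first comparison, and higher for 2 and lower for 7 of 19 in the second. Genes of the T cell receptor branch were higher for 3 and lower for 1 of 7, and higher for 1 and lower for 2 of 8. Immediate-early and handling-response genes, which cell isolation is known to induce, were past the fold lower in P6+ cells for 8 of 12 against all P6- cells, with 0 higher, and a median log2 ratio of -1.77, beside 29.9% lower and a median of -0.05 over all genes. Hspa1a, Fosb and Egr1 were at 0.0337, 0.0506 and 0.32 cpm in P6+ cells and at 49.7, 33.6 and 38.7 cpm in P6- cells, where 6, 9 and 10 cells had 10 or more reads. Against shared-prefix P6- cells 3 of 9 were higher and 3 lower. In Foxp3-high against Foxp3-low P6- cells 7 of 12 were lower and 0 higher, beside 37.9% of all genes lower. In the Foxp3 split of P6+ cells 3 of 9 were lower (Fos, Jun and Dusp1) and 1 higher (Zfp36), beside 38.3% lower. Their part in the levels of Nfkbia and Tnfaip3, which respond to the same kinds of signal, was not tested.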

How the data were processed

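Single CD4 T cells were sequenced by Smart-Seq2, which has no molecular identifiers. The deposited table holds raw read counts per gene and cell, made by the authors; the submitters' processing notes name FastQC 0.11.7, STAR 2.6.0a and SAMtools 0.1.19. Whether counting used strand is not given in the sources used here. Names listed more than once (81) were averaged, and no member was among them. Cells needed 500000 reads, 2000 genes and under 10% mitochondrial reads (7 failed on reads, 8 on mitochondrial share). The study also required a mapping rate, which the count table does not hold, and kept fewer P6- cells than the limits used here, so the P6- group includes cells that the study discarded. Total reads per cell ran from 522188 to 3401372, which sets the counting error.

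Groups came from the labels, and the tetramer sign listed for each cell in the deposited metadata matched them in 176 of 176 cells. Counts were summed per group and scaled to cpm. With 1 mouse there was no test. Past the fold means a log2(cpm + 1) ratio of 1 or more either way with 10 cpm in the higher group. Intervals are exact at 95%. TMM (edgeR 4.0.16) and size factors (DESeq2 1.42.0) served as other scalings, with no count test. Only the pooled ratio was checked on simulated cells, with known fold changes and the read totals of the Foxp3 split of P6+ cells. The simulated cells varied around their group mean by counting error alone. They lacked the high and low bands seen here, so the check says nothing about ratios carried by few cells. Named genes were the 8 members, up to 3 genes per pathway list and direction with the largest ratios past the fold, and the 3 genes most like each member. Members and lists were chosen with earlier results of these data known. Python 3.11.15, pandas 2.3.3, scipy 1.17.1 and R 4.3.3 were used.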

Additional observations from a re-analysis of the deposited data

Results flagged for a closer look

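Of the 8 name prefixes of P6- cells, prefix 7 stood apart in Nfkb1, at 341.8 cpm, with a gap to the next prefix of 0.536 of the whole range. In that prefix 2 of 12 passing cells had 10 or more Nfkb1 reads. Of its 6626 Nfkb1 reads 1 cell held 4936 (74.5%), and without that cell the level was 93.7 cpm, inside the range of the other prefixes. Both ends of the range were looked at for each of the 8 genes. The limit used for such a gap assumes normally distributed values, which levels carried by 1 cell are not. How often chance alone gives such a gap here was not measured.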

How the results depend on the processing

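The count of members past the fold was 4 to 5 for P6+ against shared-prefix P6- cells, the fifth being Rela or, without the cells with the most reads, Relb, 4 to 6 for the Foxp3 split of P6+ cells and 2 to 3 for the Trbv13-2 split. For P6+ against all P6- cells it was 1 as reported. It was 0 with the mean of cells, with cells thinned to 500000 reads, with a minimum of 1000000 reads, with mitochondrial genes out of the total, and without prefix 2, 3, 5, 6 or 9. It was 2, both lower, without the cell with the most reads of each gene, and 2, both higher, without prefix 8. There the Nfkbid log2 ratio without that cell was -1.12. For the Foxp3 split of P6- cells the count ran from 2 to 5. It was 5 on lane 1, 3 higher and 2 lower, and 4 on lane 2, with 0 higher, beside 1 higher and 2 lower as reported. Among Foxp3-high cells it was 5 without the cells with the most reads, 4 at a limit of 50 Foxp3 reads, 4 without prefix 3, 1 without prefix 7 and 4 with lane 2 only. The Relb log2 ratio there turned to 1.68 without the cells with the most reads, 0.43 at a limit of 1 Foxp3 read, 2.98 without prefix 2 and 2.46 with lane 2 only. Nfkbid turned to 1.88 in the P6+ and 0.80 in the P6- Foxp3 split at a limit of 1 read. Lane settings were chosen after seeing the data. Counting 1 read as detection moved the shares of cell and gene pairs to 85.2%, 78.4% and 73.4%. Direction was kept in 738 of 792 log2 ratios. Size factors moved the median log2 ratio of all genes in the Foxp3 split of P6- cells from -0.28 to -0.16. The cause of these changes was not tested. The single mouse, cells that carry most reads of a gene, and 11 shared-prefix P6- cells limit every comparison. No paired analysis was possible because the replicate numbers only follow accession order and pair no cells.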

Other observations

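The 15 P6- cells that failed the limits on reads or mitochondrial share had lower pooled levels of all 8 genes than the passing P6- cells. Nfkbia, the inhibitor that holds classical dimers in the cytoplasm, was at 45.7 cpm in them beside 1307 cpm, and Tnfaip3 at 400 cpm beside 682 cpm. In the failing cells 1 cell held 88.8% of the Nfkbia reads and 1 cell 84.04% of the Tnfaip3 reads, and without it the levels were 5.36 and 72.04 cpm. These cells enter no comparison.

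Within the 16 P6+ cells with 10 or more Trbv13-2 reads, the 9 Foxp3-high and 7 Foxp3-low cells differed in Relb, at 13.8 and 463 cpm, in Nfkbid, at 14.1 and 252 cpm, and in Tnfaip3, at 30.2 and 460.0 cpm. Rela stood the other way, at 427 and 86.7 cpm. With 2 and 4 cells holding 10 or more Relb reads, 1 and 2 Nfkbid, 2 and 3 Tnfaip3 and 5 and 1 Rela, these values rest on few cells, and no test was made. Regulatory T cell markers were high on both sides, at 6564 and 4626 cpm in sum, with 3481 cpm in the lowest Foxp3-low cell.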
